A study of Cavia porcellus with 10 samples.

Results

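The small leucine-rich proteoglycans are a family of secreted matrix proteins, and 9 of them that bind collagen fibrils were chosen by gene name: DCN, BGN, FMOD, LUM, ASPN, OGN, PRELP, OMD and PODN. Of these, 8 were matched by name among 25028 genes measured in the cervix, and all 8 were among the 12645 genes tested, which are those that reached a stage mean of 3 TPM or more. TPM is the relative abundance of a transcript, that is, its reads corrected for length and scaled to a fixed total in each animal. DCN, the gene of decorin, is not analysed here.

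RNA of unsorted cervical tissue was sequenced in 10 Hartley guinea pigs, with 1 library for each animal. The non-pregnant group (NP, n = 3) was killed in estrus, on the day after the membrane that closes the vulva had opened. The mid-pregnant group (MT, n = 3) was at 43.6 ± 0.5 days of gestation and the late pregnant group (LT, n = 4) at 65.2 ± 1.2 days and not in labor, both ages being estimated from the fetuses after death. Sampling centred on the vaginal end of the cervix, to limit the share of uterine muscle. In such bulk tissue fewer cells of a type and less RNA per cell cannot be told apart.

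Each protein of this family has a core of leucine-rich repeats, and most of them carry chondroitin, dermatan or keratan sulfate chains. They sit on the surface of collagen fibrils, where they are known to limit the width and the fusion of fibrils and to bind growth factors such as TGF-beta. The family is divided into classes by sequence. BGN (biglycan) and ASPN (asporin) belong to class I with decorin, FMOD (fibromodulin), LUM (lumican), PRELP and OMD (osteomodulin) to class II, OGN (osteoglycin) to class III, and PODN (podocan) to class V. Fibromodulin and lumican are known to share a binding site on type I collagen, the main fibril collagen of the cervix.

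Between 18730665 and 27881572 reads were counted on genes in each animal. The 7 more abundant members were backed by 390 to 15362 reads in every animal, and OMD by 71 to 236. Type I collagen marked the tissue as collagenous stroma in every stage, COL1A1 having a mean of 5401 TPM in the NP, 4669 TPM in the MT and 4805 TPM in the LT animals. Smooth muscle genes were abundant in every animal as well. The summed TPM of 10 smooth muscle markers was 32057 in NP replicate 1, 39199 in LT replicate 3 and 40584 in LT replicate 4, while the other 7 animals lay between 9107 and 20257. These 3 animals stand apart in that respect, and the counts of members are given below with and without them.

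All tests below are two-sided. A member is called when limma, fitted to log2(TPM + 1) over the 10 animals, gave a Benjamini-Hochberg adjusted p under 0.05 over the 12645 genes, and fold changes given as log2 values are on that scale, with their standard error (SE). The median of all tested genes shifted as well, with log2 values of -0.14 (NP to MT), -0.16 (MT to LT) and -0.28 (NP to LT). A change relative to that median is given where this matters. After the TPM of each animal were rescaled by the median ratio of its genes, these medians were -0.00, 0.01 and 0.03.

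Fibromodulin was the most abundant member in each of the 10 animals. From NP to MT, FMOD rose and ASPN, PODN and LUM fell, LUM with a call that 14 of 21 alternative settings removed. From MT to LT FMOD fell and LUM rose, FMOD remaining the more abundant of the pair in every animal. From NP to LT, BGN, ASPN, OGN and PODN were lower and no member was higher in TPM as deposited, whereas after median-ratio scaling FMOD, LUM, PRELP and OMD were higher and PODN was not called. The plot of member levels by animal shows these patterns.

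**Figure D1:**
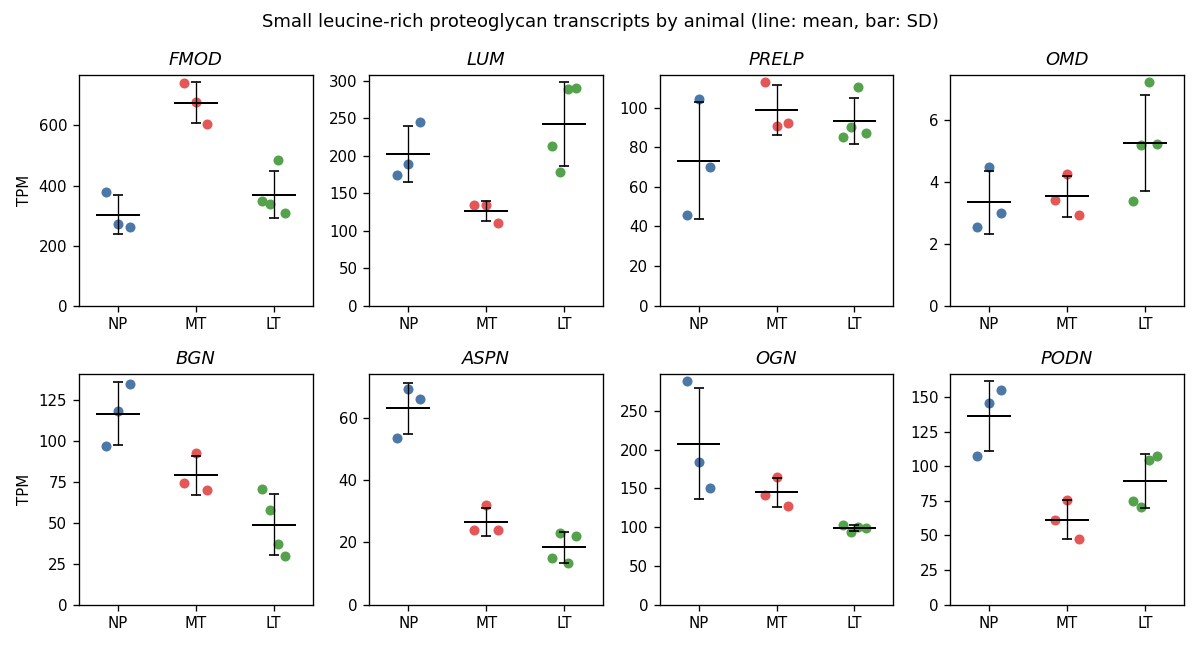
TPM of the 8 members in each animal (points, left to right in replicate order), with the mean (line) and SD (bar) of each stage, on a linear axis from 0 that differs between panels. FMOD peaks at MT, where LUM and PODN are lowest, whereas BGN, ASPN and OGN have their highest means in NP and their lowest in LT.

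Of the class II members, FMOD regulates the assembly of type I and type II collagen fibrils. It stood at 377, 271 and 261 TPM in the NP animals, at 742, 677 and 606 TPM in the MT animals, and at 348, 337, 484 and 310 TPM in the LT animals. Every MT animal lay above every animal of the other stages, and NP and LT overlapped. The means were 303 ± 64.4 TPM (SD, n = 3), 675 ± 68.3 TPM (n = 3) and 370 ± 77.6 TPM (n = 4). This is a 2.23-fold rise from NP to MT (log2 1.17, SE 0.19, limma adjusted p = 0.00331) and a 1.83-fold fall from MT to LT (log2 -0.88, SE 0.17, adjusted p = 0.00662). Relative to the median gene, these changes were 1.30 and -0.73. In each of the 21 alternative settings FMOD was called from NP to MT, and in 20 of 21 from MT to LT. The exception was edgeR on the read counts with no filter, with an adjusted p of 0.0549. Between NP and LT the log2 difference was 0.28 with a 95% interval from -0.10 to 0.67 (adjusted p = 0.192), and it passed the test without NP replicate 1 (0.45, adjusted p = 0.0407). By rank among the tested genes FMOD was 404 in NP, 198 in MT and 355 in LT.

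LUM, which organizes collagen fibrils in the cornea and other connective tissues, moved against FMOD. Its levels were 174, 189 and 245 TPM in NP, 134, 134 and 111 TPM in MT, and 213, 179, 289 and 290 TPM in LT. The MT animals were below all others, and NP and LT overlapped. From a mean of 126 ± 13.5 TPM in MT (SD, n = 3), LUM rose 1.92-fold to 243 ± 55.8 TPM in LT (n = 4; log2 0.91, SE 0.19, limma adjusted p = 0.00761), and this call was made in all 21 alternatives, while the exact permutation test gave p = 0.0571. The fall from 203 ± 37.4 TPM in NP (n = 3) to MT was 1.61-fold (log2 -0.67, SE 0.20, adjusted p = 0.0433) and was lost in 14 of 21 alternatives. It was lost on square-root TPM, the scale of the study's own tests, with no filter on low values and with the replicate number as a block. It was also lost after median-ratio scaling (adjusted p = 0.108), in the fits to read counts, and without NP replicate 2 (0.0844), NP replicate 3 (0.130), MT replicate 1 (0.0670), MT replicate 2 (0.0766), MT replicate 3 (0.147) or LT replicate 1 (0.0541). From NP to LT the value for LUM was 0.24 (adjusted p = 0.294), and it was -0.14 without the 3 animals high in smooth muscle markers.

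PRELP, which links basement membranes to the matrix through heparan sulfate, was called in no comparison. Its NP animals were spread from 45.7 TPM in replicate 1 to 104 TPM in replicate 2, with 69.9 TPM in replicate 3. The MT animals had 113, 90.7 and 92.3 TPM and the LT animals 85.1, 90.2, 110 and 87.0 TPM. The stages overlapped in every comparison, and the log2 difference from NP to MT was 0.50, with a 95% interval from -0.05 to 1.04. Without NP replicate 2, PRELP was called as higher from NP to MT (0.79, adjusted p = 0.0326) and from NP to LT (0.70, adjusted p = 0.0150).

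OMD, a keratan sulfate proteoglycan best known from bone, was the least abundant member in every animal. Its TPM ranged from 2.53 to 4.48 in NP, from 2.94 to 4.24 in MT and from 3.39 to 7.21 in LT. No difference was called, the highest being 0.52 on the log2 scale from NP to LT (95% interval from -0.01 to 1.05, adjusted p = 0.0888). Without LT replicate 1, that difference was 0.68 (adjusted p = 0.0309).

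Of the class I members, ASPN, which binds collagen and inhibits TGF-beta, changed most from NP to LT. Its levels in NP were 53.6, 69.3 and 66.0 TPM, those in MT 23.8, 31.9 and 24.1 TPM, and those in LT 14.9, 22.9, 13.4 and 22.1 TPM. There was no overlap between any of the stages. The mean was 63.0 ± 8.28 TPM in NP (SD, n = 3), 26.6 ± 4.57 TPM in MT (n = 3) and 18.3 ± 4.84 TPM in LT (n = 4). It fell 2.37-fold from NP to MT (log2 -1.22, SE 0.21, limma adjusted p = 0.00501) and 3.44-fold from NP to LT (log2 -1.75, SE 0.20, adjusted p = 0.000189), and both calls held in all 21 alternatives. The step from MT to LT (-0.54, adjusted p = 0.0654) passed the test without LT replicate 2 (-0.65, adjusted p = 0.0452).

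BGN, which in its free form is also a ligand of Toll-like receptors, had 96.7, 118 and 135 TPM in NP, 74.5, 92.5 and 69.9 TPM in MT, and 70.6, 57.7, 37.2 and 30.0 TPM in LT. The NP animals were above the MT and LT animals, and MT overlapped LT through LT replicate 1. The 2.39-fold fall from NP (117 ± 19.2 TPM, SD, n = 3) to LT (48.9 ± 18.7 TPM, n = 4) was called (log2 -1.30, SE 0.26, adjusted p = 0.00269) and held in all 21 alternatives. The separate steps were -0.55 from NP to MT (adjusted p = 0.191) and -0.75 from MT to LT (adjusted p = 0.0566). The latter was called without NP replicate 1 (adjusted p = 0.0489) or LT replicate 1 (adjusted p = 0.0184). Without the 3 animals high in smooth muscle markers the former was called (-0.68, adjusted p = 0.0177), while the latter was -0.29 and not called.

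OGN, the class III member, is also known as mimecan. Its NP animals had 289, 184 and 151 TPM, followed by 142, 165 and 128 TPM in MT. The LT animals had 103, 93.8, 100 and 99.0 TPM. The LT animals lay below all others, and NP overlapped MT. OGN was 2.10-fold lower in LT than in NP (log2 -1.01, SE 0.19, adjusted p = 0.00166), in all 21 alternatives. From NP to MT (-0.47, adjusted p = 0.122) it was called only without NP replicate 3 (-0.68, adjusted p = 0.0383). From MT to LT (-0.54, adjusted p = 0.0537), where the exact permutation test gave p = 0.0286, the smallest it can give with 3 animals against 4, OGN was called without NP replicate 1 (adjusted p = 0.0044) or NP replicate 3 (0.0281).

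PODN, the class V member, binds type I collagen and restrains smooth muscle cell growth. Its levels were 108, 146 and 155 TPM in NP, 61.3, 75.6 and 47.7 TPM in MT, and 75.2, 70.2, 105 and 108 TPM in LT. NP lay above MT and LT without overlap. LT overlapped MT, with replicates 1 and 2 within the MT range and replicates 3 and 4 just below the lowest NP animal. The 2.21-fold fall from NP (136 ± 25.2 TPM, SD, n = 3) to MT (61.5 ± 13.9 TPM, n = 3) was called (log2 -1.14, SE 0.22, adjusted p = 0.00786) and held in all 21 alternatives. In LT the mean was 89.4 ± 19.4 TPM (n = 4). The difference from NP to LT (-0.61, adjusted p = 0.0305; p = 0.0571 in the exact permutation test) was lost after scaling and in the fits to read counts, and without NP replicate 2 (0.0982), NP replicate 3 (0.108), LT replicate 1 (0.0707) or LT replicate 2 (0.0771). The difference from MT to LT (0.53, adjusted p = 0.0775) was instead called after scaling (0.71, adjusted p = 0.0274).

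**Figure D2:**
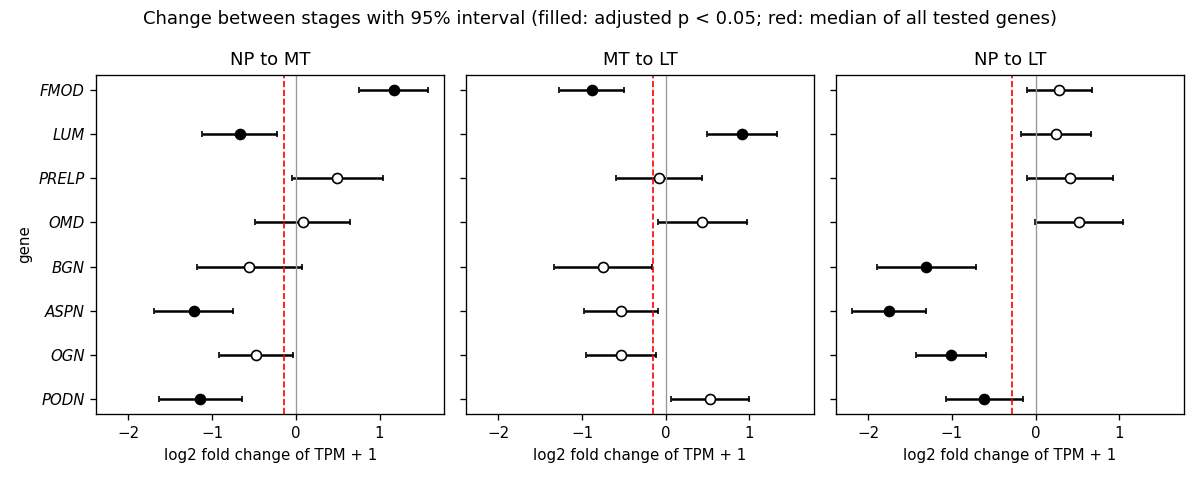
Log2 fold change of TPM + 1 for each member in the 3 comparisons (points) with its 95% interval from limma, filled where the adjusted p was under 0.05, beside the median of all tested genes (red dashed line). FMOD is the only filled point to the right in NP to MT and LUM the only one in MT to LT, and the 4 filled points in NP to LT are all to the left on this scale, where median-ratio scaling gave 4 to the right and 3 to the left.

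In counts, 1 of 8 members was higher and 3 were lower from NP to MT, where 6.27% of all tested genes were called higher and 12.2% lower. No overlap of animals was seen for 1 member that was higher and 4 that were lower in MT, against 11.4% and 23.5% of all tested genes. From MT to LT 1 member was higher and 1 was lower, against 6.73% and 22.7% of all genes, and without overlap these were 1 and 3 members against 10.8% and 35.5%. From NP to LT none was higher and 4 were lower, against 11.2% and 41.9% of all genes, and 0 and 4 members did not overlap, against 11.8% and 40.6%. Any difference between the 3 stages passed limma's F test for 6 of 8 members, all but PRELP and OMD, against 55.4% of all genes. The share called lower from NP to LT is thus near that of all genes. The median log2 change of the members was -0.51, -0.31 and -0.18 in the order of the 3 comparisons. Without the 3 animals high in smooth muscle markers, 5, 3 and 5 members were called, together with 33.8%, 24% and 53.5% of all genes in either direction.

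The scale of the data changed the split from NP to LT. With median-ratio scaling 4 members were higher (FMOD 0.61, LUM 0.57, PRELP 0.73 and OMD 0.78, with adjusted p from 0.0127 to 0.0371) and 3 lower (ASPN, BGN and OGN), while 26.3% of all genes were called higher and 23.4% lower. Among the members chosen here, those higher are of class II and those lower of classes I and III. PODN was not called (-0.29, adjusted p = 0.260). This split describes the chosen members only and was not tested for the classes as a whole. KERA, a keratan sulfate proteoglycan that is not among them, was lower on this scale (-3.08, adjusted p = 0.00185). FMOD was not called by edgeR with the filter (0.56, adjusted p = 0.0584). In TPM as deposited, none of FMOD, LUM, PRELP and OMD was called from NP to LT. From NP to MT this scaling gave 1 member higher (FMOD) and 2 lower (ASPN, PODN), with 10.9% and 7.15% of all genes. From MT to LT it gave 2 higher (LUM, PODN) and 1 lower (FMOD), with 14.6% and 14.8% of all genes. Under both scales FMOD was higher and ASPN and PODN lower from NP to MT, LUM was higher and FMOD lower from MT to LT, and BGN, ASPN and OGN were lower from NP to LT.

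Since a ratio of 2 genes within an animal does not depend on that scale, FMOD was compared with LUM directly. FMOD was 2.16, 1.43 and 1.06 times as abundant as LUM in the NP animals, 5.53, 5.05 and 5.47 times in the MT animals, and 1.63, 1.89, 1.67 and 1.07 times in the LT animals, per transcript length. The MT animals lay within a narrow band above all others, and NP and LT overlapped. On the log2 scale the ratio was 0.57 ± 0.51 in NP (SD, n = 3), 2.42 ± 0.07 in MT (n = 3) and 0.62 ± 0.36 in LT (n = 4), and an exact permutation test of its F statistic over the stages gave p = 0.0152 (0.0381 after Benjamini-Hochberg adjustment over the 5 ratios examined). The differences were 1.84 from NP to MT (exact p = 0.1, the smallest possible with 3 animals against 3), -1.80 from MT to LT (exact p = 0.0286, the smallest possible) and 0.04 from NP to LT (exact p = 0.914). Adjusted over the 15 pairwise tests of ratios, none of the pairwise p was under 0.05, the lowest being 0.143.

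**Figure D3:**
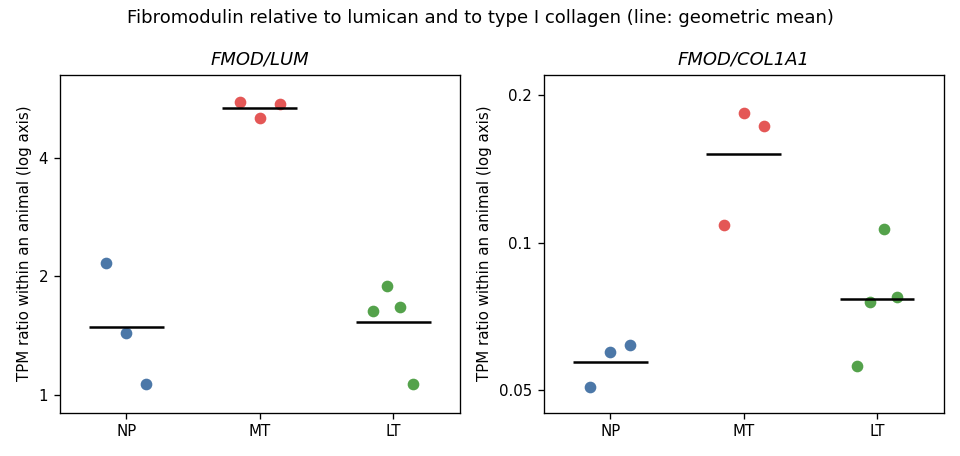
TPM ratio of FMOD to LUM (left) and of FMOD to COL1A1 (right) in each animal of the 3 stages (points) with the geometric mean (line), on log axes. The MT animals stand between 5.05 and 5.53 for FMOD/LUM, with no animal of NP or LT above 2.16, and LT replicate 3 comes within reach of MT replicate 1 for FMOD/COL1A1.

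Relative to COL1A1, which encodes a chain of type I collagen, FMOD stood at 0.0507, 0.0598 and 0.0617 in NP, at 0.108, 0.184 and 0.173 in MT, and at 0.0559, 0.0756, 0.107 and 0.0775 in LT. MT was above the other stages without overlap, though MT replicate 1 and LT replicate 3 were close. The exact F test over the stages gave p = 0.00667 (adjusted 0.0333). The ratio of BGN to COL1A1 was 1.18 lower on the log2 scale in LT than in NP, without overlap (exact p = 0.0286; adjusted 0.143), and its exact F test over the stages gave p = 0.0714 (adjusted 0.119). For LUM to COL1A1 the exact F test gave p = 0.216. The ratio of FMOD to PRELP differed by -0.80 on the log2 scale from MT to LT, without overlap (exact p = 0.0286; adjusted 0.143), with p = 0.160 in the exact F test.

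The summed TPM of the 8 members were 1107 ± 34.5 in NP (SD, n = 3), 1215 ± 117 in MT (n = 3) and 966 ± 125 in LT (n = 4), with overlap between the stages. Within that sum the make-up changed. FMOD contributed 27.3% in NP, 55.5% in MT and 38.1% in LT, and LUM 18.4%, 10.4% and 25%. The share of OGN was 18.7%, 11.9% and 10.3%, that of PODN 12.4%, 5.03% and 9.22%, and that of BGN 10.6%, 6.5% and 5.22%. ASPN contributed 5.71%, 2.19% and 1.95%, PRELP 6.67%, 8.14% and 9.66%, and OMD less than any other member.

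**Figure D4:**
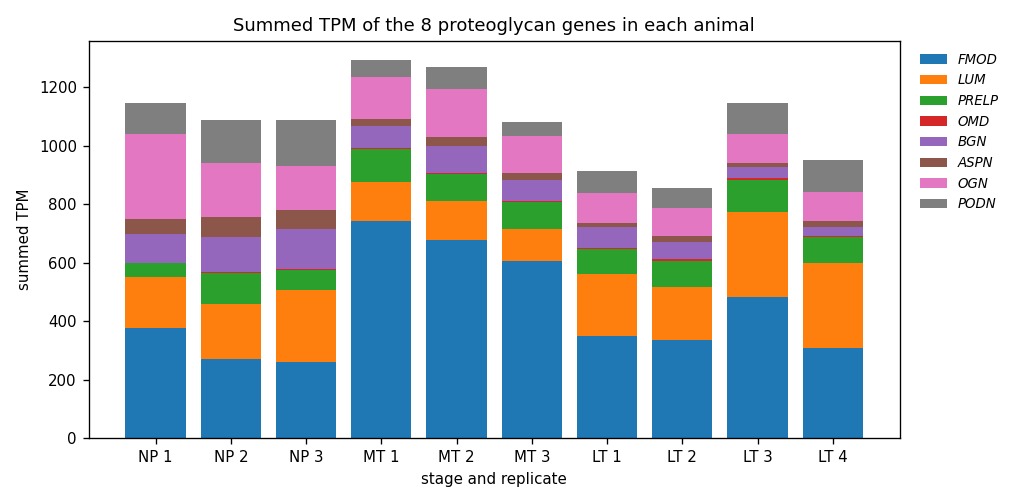
Summed TPM of the 8 members in each animal, stacked by gene and labelled with stage and replicate. FMOD makes up 53.3% to 57.3% of the bar in the MT animals, 24% to 32.9% in NP and 32.6% to 42.2% in LT.

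In NP the order of mean levels was FMOD, OGN, LUM, PODN, BGN, PRELP, ASPN and OMD, and only LUM to PODN and ASPN to OMD were neighbours without overlap between animals. In MT it was FMOD, OGN, LUM, PRELP, BGN, PODN, ASPN and OMD. There FMOD was separated from OGN, PODN from ASPN and ASPN from OMD, and the neighbours between OGN and PODN overlapped. In LT it was FMOD, LUM, OGN, PRELP, PODN, BGN, ASPN and OMD, with FMOD, LUM and OGN separated from one another, and BGN, ASPN and OMD likewise.

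The LT animals did not form a uniform group for every member. Replicates 3 and 4, with the high smooth muscle sums, had the highest LUM (289 and 290 TPM) and PODN (105 and 108 TPM) and the lowest BGN (37.2 and 30.0 TPM) of that stage. FMOD did not follow this split, being highest in replicate 3 (484 TPM) and lowest in replicate 4 (310 TPM). NP replicate 1, the third animal of that kind, had the highest FMOD and OGN and the lowest LUM, BGN, ASPN, PODN, PRELP and OMD of the NP animals. The part of the muscle content in these differences was not tested. Without these 3 animals only replicates 2 and 3 were left in NP and replicates 1 and 2 in LT. In that fit FMOD was higher from NP to MT (1.33, adjusted p = 0.0010) and lower from MT to LT (-0.97, adjusted p = 0.0101). LUM was lower (-0.77, adjusted p = 0.0132) and then higher (0.63, adjusted p = 0.0284). From NP to LT the values became -1.04 for PODN, 0.04 for PRELP and 0.16 for OMD. From MT to LT they became 0.26 for PODN and -0.29 for BGN.

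Several of these genes lie side by side. In the mCavPor4.1 assembly of RefSeq, used here for gene order only, LUM lies between KERA and DCN, ASPN, OMD and OGN follow each other next to ECM2, and PRELP lies between OPTC and FMOD, while BGN lies between ECMX and ATP2B3 and PODN between SCP2 and SLC1A7. When each profile of log2(TPM + 1) was centred over the 10 animals, the root mean square difference was 0.52 between the adjoining FMOD and PRELP, 0.99 between ASPN and OMD and 0.75 between OMD and OGN. The pairs most alike were PRELP and OMD (0.32), LUM and PODN (0.37), LUM and OMD (0.40) and BGN and OGN (0.46), which do not adjoin, and the pair least alike was ASPN and FMOD (1.10). These values describe the same 10 libraries and carry no test.

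Among all tested genes with a name, the closest profile to FMOD by the same measure was that of CMIP (0.17), which had 104 ± 19.5 TPM in NP (SD, n = 3), 244 ± 13 TPM in MT (n = 3) and 145 ± 16.2 TPM in LT (n = 4). SYN3 and TAGLN3 came next. Closest to LUM were CPM, a carboxypeptidase (0.18), SSX2IP and TNFAIP6, which encodes a hyaluronan-binding protein of the matrix. BGN was closest to TRIB2, LRRC4B and MMP15, ASPN to PLXDC2, BCL6B and WSCD1, OGN to FKBP1B, UGCG and PPFIA4, and PODN to NDN, ARHGAP20 and KCNAB2. For PRELP these included EPB41L3 and RPS6KA1, and for OMD they were GBE1, TOLLIP and GHR_CAVPO.

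The other small leucine-rich genes of the matrix are the nearest relatives of the members. Of 9 such genes, 4 passed the filter on low values, and EPYC, OPTC, CHAD, CHADL and NYX did not. None of the 4 was called from NP to MT or from MT to LT, and 1 was higher and 2 were lower from NP to LT. With scaling, TSKU was higher from NP to MT (0.59, adjusted p = 0.0472), and 1 was higher and 1 lower from NP to LT. For this and the lists below, of all tested genes 6.27% were called higher and 12.2% lower from NP to MT. From MT to LT these shares were 6.73% and 22.7%, and from NP to LT 11.2% and 41.9%. With scaling they were 10.9% and 7.15%, 14.6% and 14.8%, and 26.3% and 23.4%. KERA, the gene of keratocan, a keratan sulfate proteoglycan known from the cornea and the neighbour of LUM, had 35.3, 126 and 90.0 TPM in NP, 21.5, 31.3 and 16.1 TPM in MT, and 13.4, 11.4, 3.72 and 2.19 TPM in LT. The 3 stages did not overlap, in contrast to LUM, and KERA was lower from NP to LT (log2 -3.38, SE 0.58, adjusted p = 0.00110). TSKU, which encodes tsukushi, was higher from NP to LT (0.57, adjusted p = 0.0181). ECM2 was lower (-0.66, adjusted p = 0.0458), a call that scaling removed (adjusted p = 0.193).

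The collagens include the fibrils that these proteins bind. Of 11 tested fibrillar and associated collagens, none was higher in any comparison, and 1, 2 and 5 were lower from NP to MT, from MT to LT and from NP to LT. Of all tested genes, 12.2%, 22.7% and 41.9% were lower in these comparisons. COL1A1 and COL1A2, the chains of type I collagen, were not called, with log2 values from -0.23 to 0.15. COL12A1, which encodes a collagen on the fibril surface, averaged 419 ± 43.0 TPM before pregnancy (SD, n = 3), 431 ± 104 TPM at MT (n = 3) and 141 ± 70.6 TPM at LT (n = 4) and fell from MT to LT (-1.72, adjusted p = 0.00695), as FMOD did. COL14A1, another surface collagen, was lower from MT to LT as well (-0.43, adjusted p = 0.0242), but not after scaling (adjusted p = 0.185). COL11A1, of the minor fibril collagens, fell from NP to MT (-2.01, adjusted p = 0.00776). From NP to LT, COL11A1 (-2.55) and COL12A1 (-1.70) were called on both scales, while COL11A2 (-0.94), COL5A2 (-0.76) and COL6A2 (-0.57) were not called after scaling. COL11A2 passed the filter on low values only through NP (3.25 TPM, with 2.77 TPM in MT and 1.21 TPM in LT). With scaling, 1 collagen was lower in each of the first 2 comparisons and 2 from NP to LT, and COL14A1 was higher from NP to MT (0.50, adjusted p = 0.0385).

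Sulfated chains are built on the core proteins by enzymes, some of which serve more than 1 kind of chain. Of 19 tested enzymes for dermatan and chondroitin sulfate chains, carried by biglycan and decorin, none was called from NP to MT. From MT to LT 3 were lower (CHPF -0.58, B3GAT3 -0.48 and UST -0.63), beside 22.7% of all tested genes. From NP to LT 7 were lower, beside 41.9% of all tested genes, led by UST (-0.85), CHST7 (-0.83), CHST11 (-0.75) and CHPF (-0.72). CHST7 passed the filter on low values only through NP (4.96 TPM, with 2.31 TPM in MT and 2.38 TPM in LT). With scaling, 1 enzyme was lower from MT to LT, as CHPF (adjusted p = 0.0535) and UST (0.117) were not called. From NP to LT 2 were higher and 2 lower with scaling, CHST7 (0.109) and CHST11 (0.0660) not being called. DSE, the epimerase that makes dermatan sulfate, averaged 38.7 ± 0.862 TPM in NP (SD, n = 3), 37.0 ± 1.41 TPM in MT (n = 3) and 35.0 ± 1.61 TPM in LT (n = 4) and was not called.

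Keratan sulfate chains are carried by fibromodulin and lumican, among others. Of 9 tested enzymes for them, 2 were higher and 1 lower from NP to MT, 1 was higher and 1 lower from MT to LT, and 2 were higher and 3 lower from NP to LT. With scaling, 3 were higher and 1 lower, 1 higher and 1 lower, and 3 higher and 3 lower. B3GNT7, which adds N-acetylglucosamine to the growing chain, had 6.83, 10.2 and 12.9 TPM in NP, 73.7, 43.7 and 82.4 TPM in MT, and 90.6, 118, 137 and 139 TPM in LT. No stage overlapped another, and it rose from NP to MT (log2 2.61, SE 0.27, adjusted p = 0.000602) and from MT to LT (0.88, SE 0.26, adjusted p = 0.0286). CHST4, a sulfotransferase, rose from NP to MT (2.24, adjusted p = 0.00107), and ST3GAL1, a sialyltransferase, fell (-1.18, adjusted p = 0.0122). CHST1, which sulfates galactose in keratan sulfate, was lower from MT to LT (-0.61, adjusted p = 0.0125). CHST2, another sulfotransferase, was lower from NP to LT (-1.01, adjusted p = 0.00235). The summed TPM of glandular epithelium markers was between 918 and 1054 in NP, between 1875 and 2639 in MT and between 1720 and 2013 in LT, with 3 of 6 tested markers higher from NP to MT, among them MUC5B (3.75, adjusted p = 0.00980), and 3 higher and 1 lower from NP to LT (5 and 1 after scaling, with 1 higher from MT to LT). PAX8 (-0.35), MUC1 (0.24) and CDH1 (0.23) were not called from NP to MT. The part of the epithelium in the enzyme values was not tested.

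Proteases and their helpers can release or trim these proteins, BMP1 being known to cleave the biglycan propeptide. Of 9 tested, 3 were lower from NP to MT, 2 were higher from MT to LT, and 1 was higher and 3 lower from NP to LT. With scaling, the first 2 comparisons gave the same counts, and from NP to LT 3 were higher and 2 lower, with PCOLCE2 and ADAMTS1 newly higher and MMP14 not called. MMP14, a membrane-bound metalloprotease, fell from NP (339 ± 48.5 TPM, SD, n = 3) to MT (185 ± 0.614 TPM, n = 3; log2 -0.86, adjusted p = 0.00280), as did BMP1 (-1.0, adjusted p = 0.0263). The third, MMP13, passed the filter on low values only through NP, with 15.8, 4.56 and 2.77 TPM there and 1 to 10 reads in the MT animals. PCOLCE (0.63, adjusted p = 0.0451) and PCOLCE2 (0.97, adjusted p = 0.0196), enhancers of procollagen cleavage by BMP1, rose from MT to LT. MMP2, the most abundant of the list, averaged 790 ± 289 TPM in NP (SD, n = 3), 631 ± 84.1 TPM in MT (n = 3) and 985 ± 322 TPM in LT (n = 4) and was not called.

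Of 19 tested ligands and receptors that members of the family are known to bind or signal through, 2 were higher and 5 lower from NP to MT, 2 higher and 6 lower from MT to LT, and 3 higher and 8 lower from NP to LT. With scaling these were 3 and 3, 3 and 3, and 4 and 7. TGFB2, one of the TGF-beta ligands, averaged 85.4 ± 6.20 TPM in NP (SD, n = 3), 49.7 ± 4.89 TPM in MT (n = 3) and 36.8 ± 2.47 TPM in LT (n = 4), and was lower from NP to MT (-0.77, adjusted p = 0.00130) and from MT to LT (-0.42, adjusted p = 0.0102). With scaling the second step was not called (adjusted p = 0.0975). CTGF, a growth factor of the matrix, fell from NP to MT (-1.62, adjusted p = 0.0129), as did TLR4 (-0.69, adjusted p = 0.00990), a receptor of soluble biglycan. WISP1, a secreted protein known to bind small proteoglycans, was lower too (-0.80, adjusted p = 0.0310), but not with scaling (adjusted p = 0.0660). ERBB4 rose (2.01, adjusted p = 0.0142). From MT to LT, C1QB, a chain of complement C1q (1.46, adjusted p = 0.00182), and CD14, the co-receptor of TLR4 (1.15, adjusted p = 0.0107), rose, and TGFBR3, the co-receptor betaglycan, fell (-0.98, adjusted p = 0.0113). ERBB2, a receptor of the epidermal growth factor family, was higher from NP to MT (0.44, adjusted p = 0.0242) and lower from MT to LT (-0.63, adjusted p = 0.00376). CD44, the hyaluronan receptor, was not called in any comparison.

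**Figure D5:**
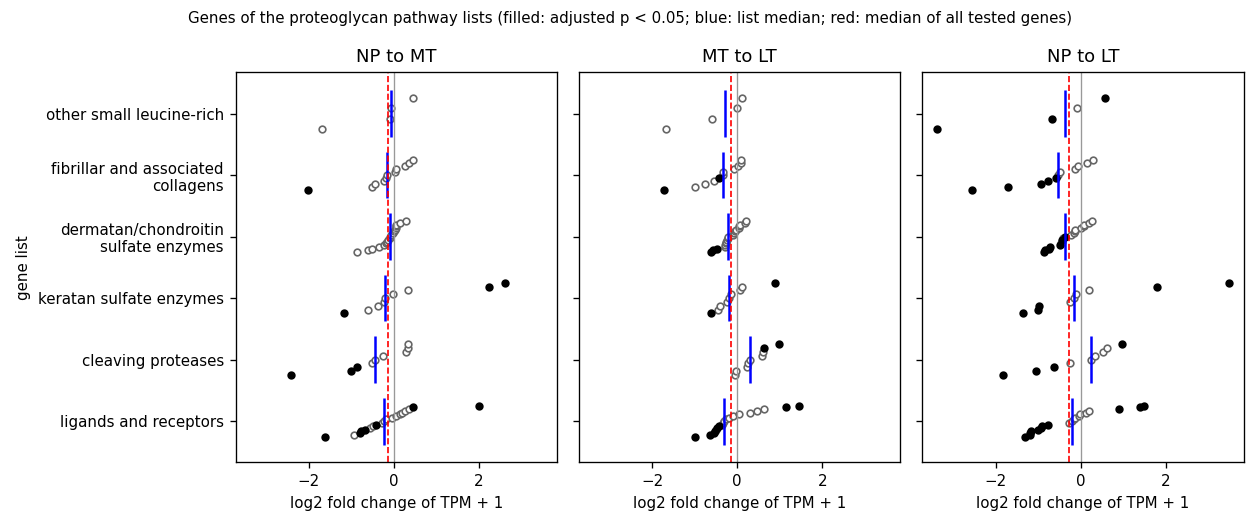
Log2 fold change of TPM + 1 in the 3 comparisons for each tested gene of 6 lists (points, filled where the limma adjusted p was under 0.05), with the list median (blue) and the median of all tested genes (red dashed line). B3GNT7 and CHST4 are the filled points to the far right among keratan sulfate enzymes from NP to MT, and KERA is the point farthest to the left from NP to LT.

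Markers of the cell types that the tissue can hold were counted in the same way. Of all tested genes, 12.2%, 22.7% and 41.9% were lower and 6.27%, 6.73% and 11.2% higher, in the order of the 3 comparisons. Of 9 fibroblast markers none was called from NP to MT and 2 were lower from MT to LT, PDGFRA (-1.59, adjusted p = 0.00187) and PDGFRB (-0.56, adjusted p = 0.0324), the latter not after scaling (adjusted p = 0.0691). From NP to LT, 3 of 9 were lower on both scales, PDGFRA (-1.18), PDGFRB (-1.10) and TCF21 (-1.24), while the other 6, with FBLN1 at 0.52, were not called, and the median of the list was 0.02 against -0.28 over all genes tested. Their summed TPM ranged from 6160 to 10715 in NP, from 5422 to 10152 in MT and from 6160 to 9333 in LT. Of 10 smooth muscle markers none was called from NP to MT and 1 was higher from MT to LT and 1 from NP to LT, and their sums are given above. Endothelial markers summed to between 177 and 240 TPM in NP, 126 and 186 TPM in MT and 71.5 and 112 TPM in LT, with 1 of 8 lower from NP to MT, 7 from MT to LT (5 after scaling) and 8 from NP to LT. Squamous epithelium markers summed to between 1013 and 3100 TPM in NP, 166 and 1228 TPM in MT and 1488 and 2931 TPM in LT, with 2 of 5 lower from NP to MT and 1 higher from MT to LT, KRT14 (2.5, adjusted p = 0.0184), and 2 lower from NP to LT. Those lower, SPRR3 (15.4 TPM in NP) and IVL (53.3 TPM in NP), passed the filter on low values only through NP. None of 7 leukocyte markers was called from NP to MT or from MT to LT and 1 was lower from NP to LT, with sums between 89.0 and 213 TPM over the animals. Of 6 tendon and cartilage markers 1 was lower from NP to MT (none after scaling), 2 were higher and 2 lower from MT to LT, and 2 were higher and 4 lower from NP to LT. COL9A1, lower from NP to MT and from NP to LT, passed the filter on low values only through NP (3.98 TPM). The part of these cell types in the members' differences was not tested.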

How the data were processed

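RNA of the vaginal portion of the cervix from 10 guinea pigs was poly(A) selected and sequenced as single strand-specific reads. The authors aligned the reads with TopHat2 to the cavPor3 genome of the guinea pig and counted reads per gene with HTSeq-count 0.5.4p1, after base calling with CASAVA 1.8.2 per the labels. The strand setting of the counting is not given in the sources used here. The deposited table holds, for each of 25028 Ensembl genes and each animal, the count of reads and the TPM value the authors derived from it, in 20251 cases with a gene name. TPM divides a count by transcript length and sets each animal to the same total, so a rise of abundant genes lowers the values of others.

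Tests were made with limma 3.58.1 (trend, R 4.3.3) on log2(TPM + 1) in 1 fit of 3 stages, with a filter of a mean of 3 TPM in at least 1 stage and Benjamini-Hochberg adjustment over 12645 genes. The pseudocount understates changes of low genes. The unit was the TPM because the study's methods name it, with read counts used in alternatives by edgeR 4.0.16 (quasi-likelihood, TMM or relative log expression factors) and DESeq2 1.42.0. Exact permutation tests used square-root TPM for members and log2 values for ratios. With 3 animals against 3 an exact permutation test cannot go below p = 0.1. Scripts were tested on simulated data. Of planted 2-fold changes, 52.5% were called from NP to MT, 64% from MT to LT and 69.9% from NP to LT. Of planted 4-fold changes, 88.3%, 94.8% and 95.3% were called. A difference that was not called is thus not shown to be absent. Libraries were compared for duplicates and none was found. Counting error is small at 390 reads or more, and larger for OMD.

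The members and gene lists were chosen with earlier results of these data known. Named were all members, in each list the most abundant gene and up to 4 called genes of largest change for each comparison, and the 3 named genes with the most similar profile to each member. Of these, 1 is not reported here. Further genes were named for their known role after their values were seen. Of 8 planned ratios, 5 were computed and 3 with DCN were not. Gene order comes from RefSeq assembly mCavPor4.1, and no coordinates or sequences are given, since no genome of the build of the files was used here.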

Additional observations from a re-analysis of the deposited data

How the results depend on the processing

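Member changes were recomputed in 21 alternatives for each comparison, 504 values in all. Of these, 431 kept their direction and side of the threshold, 24 were no longer past it, 39 were newly past it, and 10 that were never called changed sign, all of them OMD from NP to MT, PRELP from MT to LT or LUM from NP to LT. From MT to LT, where 2 members were called, DESeq2 called 4 (FMOD, LUM, OMD and PODN) with 36.1% of all genes against 29.4%, and leaving out 1 animal at a time gave 2 to 4, the 4 being without NP replicate 1 (BGN, FMOD, LUM and OGN), with 42.1% of all genes. From NP to LT, where 4 were called with 53.1% of all genes, median-ratio scaling, edgeR with no filter and DESeq2 each called 7 (with 49.7%, 37.5% and 53.6%), and edgeR with the filter 6 (with 49.4%). Over all genes, calls higher and lower were 793 and 1549 from NP to MT, 851 and 2872 from MT to LT and 1417 and 5301 from NP to LT, and became 1378 and 904, 1848 and 1868, and 3330 and 2955 after median-ratio scaling. The cause of that shift was not tested. Leaving out the 3 animals with over 30000 summed TPM of smooth muscle markers was chosen after seeing the data. With the replicate number as a replicate block, 3 members were called from NP to MT (LUM was lost), 3 from MT to LT (ASPN was added), 4 from NP to LT and 6 by the F test, the first 3 counts beside 12.5%, 13.4% and 43.1% of all genes. The correlations between the deviations of animals with the same number ran from -0.29 to 0.25, and 3 of 9 were above 0.1. Those from NP to MT were 0.25, 0.16 and 0.08. With so few animals in each stage, these values cannot decide whether the number pairs animals. The calls of OMD and PRELP from NP to LT depended on the scale.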
